A study of Homo sapiens with 2 samples.

Results

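The circadian clock genes PER1, PER2, PER3, CRY1, CRY2, BMAL1, CLOCK, NR1D1, NR1D2 and DBP were examined in Ca9-22 cells, an established line from a squamous carcinoma of the gingiva. A probe set was taken as a member if the platform's annotation gave 1 of these 10 genes alone. This held for 18 of 54613 probe sets that are not controls, and for 8 of the 10 genes. Every probe set that lists PER1 (4) or NR1D1 (3) also lists another gene, MIR6883 or THRA, so no level is given for those 2 genes. Both groups were Ca9-22 cells stably transduced and selected with blasticidin for 2 weeks, with an empty vector in the control and a RUNX2 vector in the other group. RUNX2 is a runt-domain transcription factor best known from bone. Total RNA was labelled with biotin and measured on 1 array per group, so no test between groups was possible and no p-value is given. The labels give neither a time of harvest nor a step that synchronises the cells, and do not say which promoter drives RUNX2 or whether the cells were a clone or a pool.

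The clock of mammalian cells is a transcriptional feedback loop. BMAL1 and CLOCK form a heterodimer that binds E-box elements and activates the PER, CRY, NR1D and DBP genes. PER and CRY proteins return to the nucleus to repress that heterodimer, the nuclear receptors NR1D1 and NR1D2 repress BMAL1 through ROR response elements, and DBP activates genes with D-box elements. In cultured cells the phase of this loop is set by serum, cyclic AMP and glucocorticoid signals, and in skin it times cell division and barrier functions. These statements are background.

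Of 15 promoter windows of the 10 genes, 9 held letters of an E-box, D-box or ROR element and 6 held none. The 4 printed here were chosen because they hold matches, as examples of each kind of element, and they do not stand for all members. The sequences are RefSeq's, build GRCh38.p14, 5′ to 3′ on the gene's strand, from 250 bases before a transcript start to 50 bases from it. NR1D2 is shown at chr3:23945871-23946170, plus strand, PER2 at chr2:238288561-238288860, minus strand, PER3 at chr1:7784041-7784340, plus strand, and BMAL1 at chr11:13277540-13277839, plus strand. Capitals mark matches to the motifs searched.
NR1D2: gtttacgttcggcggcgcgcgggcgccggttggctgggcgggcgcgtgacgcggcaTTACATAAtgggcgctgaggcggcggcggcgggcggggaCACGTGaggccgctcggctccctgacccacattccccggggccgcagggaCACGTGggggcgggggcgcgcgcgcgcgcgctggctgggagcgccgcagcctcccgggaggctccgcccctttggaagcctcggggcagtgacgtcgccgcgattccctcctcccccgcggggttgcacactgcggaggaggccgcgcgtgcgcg
PER2: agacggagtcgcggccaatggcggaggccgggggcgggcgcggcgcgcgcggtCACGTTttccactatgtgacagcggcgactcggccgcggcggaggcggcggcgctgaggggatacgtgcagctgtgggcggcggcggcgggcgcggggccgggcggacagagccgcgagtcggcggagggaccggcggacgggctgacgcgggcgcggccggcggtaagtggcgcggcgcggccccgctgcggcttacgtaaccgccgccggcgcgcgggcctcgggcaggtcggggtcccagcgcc
PER3: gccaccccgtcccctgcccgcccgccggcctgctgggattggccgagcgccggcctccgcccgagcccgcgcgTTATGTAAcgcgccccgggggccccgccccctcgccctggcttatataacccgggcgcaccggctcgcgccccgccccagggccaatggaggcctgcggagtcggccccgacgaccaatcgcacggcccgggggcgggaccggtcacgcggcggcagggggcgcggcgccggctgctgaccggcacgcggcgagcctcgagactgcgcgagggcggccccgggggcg
BMAL1: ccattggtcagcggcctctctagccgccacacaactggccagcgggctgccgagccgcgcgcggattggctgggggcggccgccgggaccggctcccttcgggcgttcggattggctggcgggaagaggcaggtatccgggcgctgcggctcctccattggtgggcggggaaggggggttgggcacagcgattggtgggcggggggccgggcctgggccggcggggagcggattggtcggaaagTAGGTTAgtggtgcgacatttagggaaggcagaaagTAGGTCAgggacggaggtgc

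Counting the first transcribed base as 0, the NR1D2 window held the E-box CACGTG at -155 to -150 and again at -105 to -100, and a D-box, TTATGTAA, on the opposite strand at -194 to -187. The PER2 window held the variant E-box CACGTT at -197 to -192, and the PER3 window held the D-box at -177 to -170. In BMAL1, ROR element letters stood on both sides of the start, TAGGTTA at -6 to 0 and TAGGTCA at 30 to 36. Both strands were searched, and the matches in these 4 windows did not overlap.

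All 10 genes had at least 1 window in the RefSeq table. The 1 window of DBP held none of the 7 motifs searched, and neither did another window each of NR1D2, PER3, CRY2 and CLOCK. CACGTG was found in 2 of the 15 windows (PER1 and NR1D2) and in 7.26% of all 35116 promoter windows of this length. CACGTT was found in 5 of the 15 windows (PER2, CRY1, CRY2, CLOCK and NR1D1) and in 5.34% of all windows. TTATGTAA was found in 2 of the 15 (PER3 and NR1D2) and in 0.886% of all windows. TAGGTCA was found in 2 of the 15 (BMAL1 and CRY2), against 1.85% of all windows, and TAGGTTA in 1 (BMAL1), against 1.1%. Whether a match goes with the direction of a gene on these arrays was not tested. The core RUNX motif TGTGGT was found in 1 of the 15 windows, another window of BMAL1, and in 13.1% of all windows. The cyclic AMP element TGACGTCA was found in 0 of the 15 windows and in 1.85% of all windows. A match is a run of letters and not a measured site, and no match says only that these letters are not in this window.

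The members of the loop went opposite ways. In the array labelled RUNX2, the measured genes for the repressors PER2, PER3, CRY2 and NR1D2 and for the output factor DBP were lower, and those for the activators BMAL1 and CLOCK and for the repressor CRY1 were higher. The share of lower genes, 62.5%, was near the 57.3% of all genes measured. By direction alone the split was thus close to that of all genes. Levels are probe set intensities on a linear scale in arbitrary units, after a factor of 0.966 on the array labelled RUNX2 had brought both trimmed means to 1 value. A probe set counted as measured above the median of at least 1 array (55.3 with the empty vector, and 51.8 in the array labelled RUNX2 after scaling), here called the floor. Of the 18 probe sets, 12 were measured, all above the floor on both arrays, and they represented all 8 genes. For each gene the brightest measured probe set is given first, and it stands for the gene in counts.

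**Figure D1:**
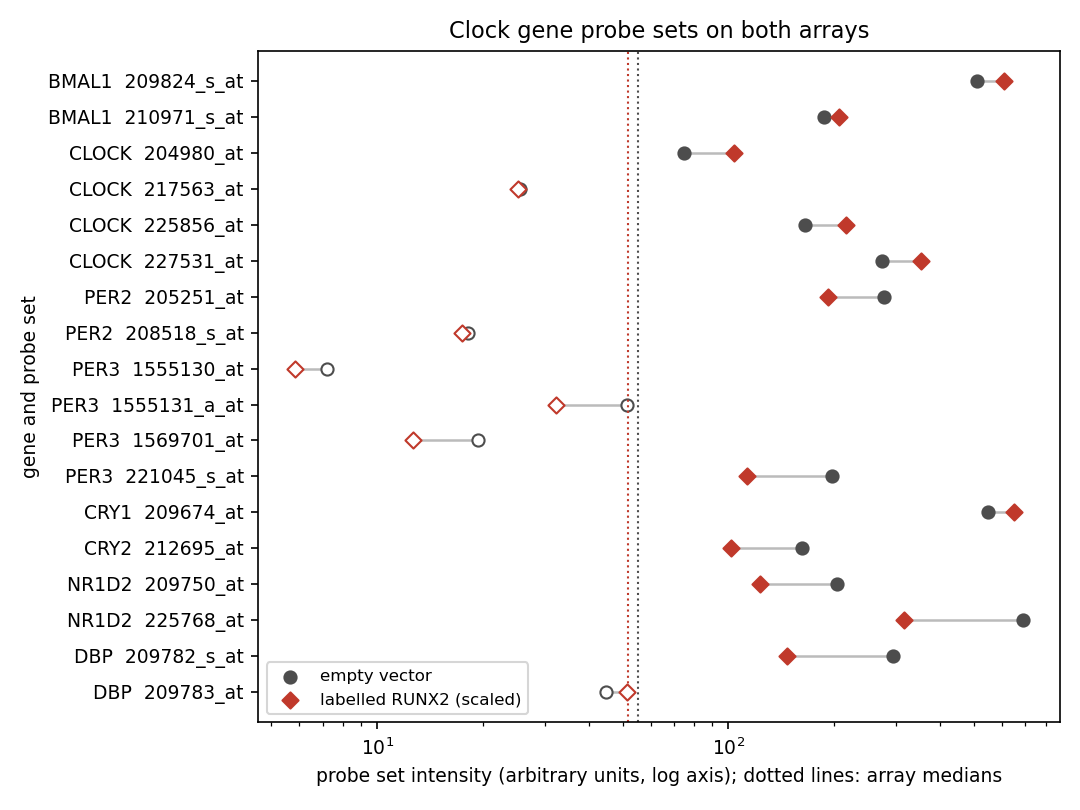
Intensity (log axis, arbitrary units) of all 18 clock gene probe sets on the empty vector array (circles) and the array labelled RUNX2 (diamonds), 1 array each and no error bars. Open symbols are the 6 probe sets at or below the array medians (dotted lines), and the diamonds lie left of the circles for every filled pair of PER2, PER3, CRY2, NR1D2 and DBP and right of them for BMAL1, CLOCK and CRY1.

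The activators were higher by small amounts. BMAL1, the partner of CLOCK in the DNA-binding heterodimer, read 510 with the empty vector and 608 in the array labelled RUNX2 by 209824_s_at, 1.19-fold higher. Its other probe set, 210971_s_at, read 187 and 206, 1.11-fold higher. Both BMAL1 probe sets thus went the same way, with log2 ratios of 0.26 and 0.14. CLOCK, a helix-loop-helix PAS protein, read 273 and 354 in 227531_at, 1.30-fold higher. It read 165 and 216 in 225856_at and 74.96 and 103 in 204980_at, 1.31-fold and 1.38-fold higher. The 3 measured CLOCK probe sets spanned log2 ratios of 0.37 to 0.46, and the other one, 217563_at, was below the floor on both arrays (25.5 and 25.2). Over all 12729 genes measured, 12.6% had a higher log2 ratio than CLOCK and 19.2% had a higher one than BMAL1, so neither stood at the edge of the distribution.

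PER2 and PER3, whose proteins carry the negative feedback together with CRY, were lower, and PER1 has no value here. PER2 read 276 with the empty vector and 192 in the array labelled RUNX2 by 205251_at, 1.44-fold lower. PER3 read 197 and 113 in 221045_s_at, 1.74-fold lower. Both genes rest on 1 measured probe set each. The other probe set of PER2, 208518_s_at, read 18.1 on both arrays as deposited, below the floor. The deposited values of 1447 probe sets were equal on both arrays. The other 3 probe sets of PER3 were also below the floor on both arrays. They read 51.4 and 32.3 in 1555131_a_at, 19.4 and 12.6 in 1569701_at, and 7.18 and 5.83 in 1555130_at. Each read lower on the array labelled RUNX2, but values at this level are not used as ratios here. Of all genes, 1115 had a lower log2 ratio than PER2 and 383 a lower one than PER3.

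The CRY genes went apart. CRY1, a flavoprotein repressor that binds the BMAL1 and CLOCK heterodimer, read 549 and 651 in 209674_at, 1.19-fold higher. CRY2, its paralog and also a repressor in the loop, read 162 and 101 in 212695_at, 1.60-fold lower. Each rests on a single probe set. The log2 ratio of CRY1 exceeded that of CRY2 by 0.92, which corresponds to a 1.90-fold higher CRY1 to CRY2 ratio on the array labelled RUNX2. That quantity does not depend on the factor between the arrays.

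The widest difference was in NR1D2, a heme-binding nuclear receptor that represses BMAL1. It read 691 with the empty vector and 317 in the array labelled RUNX2 by 225768_at, 2.18-fold lower, with a log2 ratio of -1.12. Its other probe set, 209750_at, read 204 and 123, 1.65-fold lower. The gene was thus lower in both probe sets, by unequal amounts, and it passed 2-fold in the brighter of them. Of all genes, 126 had a lower log2 ratio. The log2 ratio of BMAL1 exceeded that of NR1D2 by 1.38, a 2.60-fold higher BMAL1 to NR1D2 ratio on the array labelled RUNX2.

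DBP, a PAR-domain leucine zipper factor and a classical direct output of the loop, read 294 with the empty vector and 147 in the array labelled RUNX2 by 209782_s_at, 2.003-fold lower. This lies at the threshold itself. The other probe set, 209783_at, was below the floor on both arrays and read 44.9 and 51.6, higher on the array labelled RUNX2, so DBP rests on 1 measured probe set. Raising the floor to the 75th percentile of each array gave DBP a bound of -0.55 on the log2 scale. Of all genes, 186 had a lower log2 ratio. The log2 ratio of BMAL1 exceeded that of DBP by 1.26.

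Of the 8 genes, 2 (NR1D2 and DBP) were at least 2-fold lower and 0 were at least 2-fold higher. The lower count was 1 under 7 of the alternatives, where 0.715% to 1.66% of all genes were at least 2-fold lower. DBP was lost in 6 of them, and NR1D2 when probe sets were averaged. In 1 of those 6, probe sets ending in _x_at or _s_at were left out. That removed the measured probe set of DBP, and 5 genes remained. Among all 12729 genes measured, 1.47% were at least 2-fold lower and 1.42% at least 2-fold higher, with higher genes making up 49.2% of the genes past 2-fold and 62.7% when array medians were made equal. At 1.5-fold, 4 of the 8 genes were lower (PER3 and CRY2 besides), against 6.88% of all genes, and 0 were higher, against 5.77%. The median log2 ratio of the 8 genes was -0.60, and that of all genes was -0.06. Under that higher floor PER3 and CRY2 were not measured, and the median of the remaining 6 genes was -0.11. Probe sets of the same gene differed from each other with an SD of 0.29 in log2 ratio over 6165 genes, a technical spread within these arrays and no replicate error. The log2 ratios of BMAL1 and CRY1 (0.25) were smaller than this spread, that of CLOCK was a little wider, and those of the 5 lower genes were wider. In RNA from whole cultures, fewer cells with a transcript and less of it per cell cannot be told apart.

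**Figure D2:**
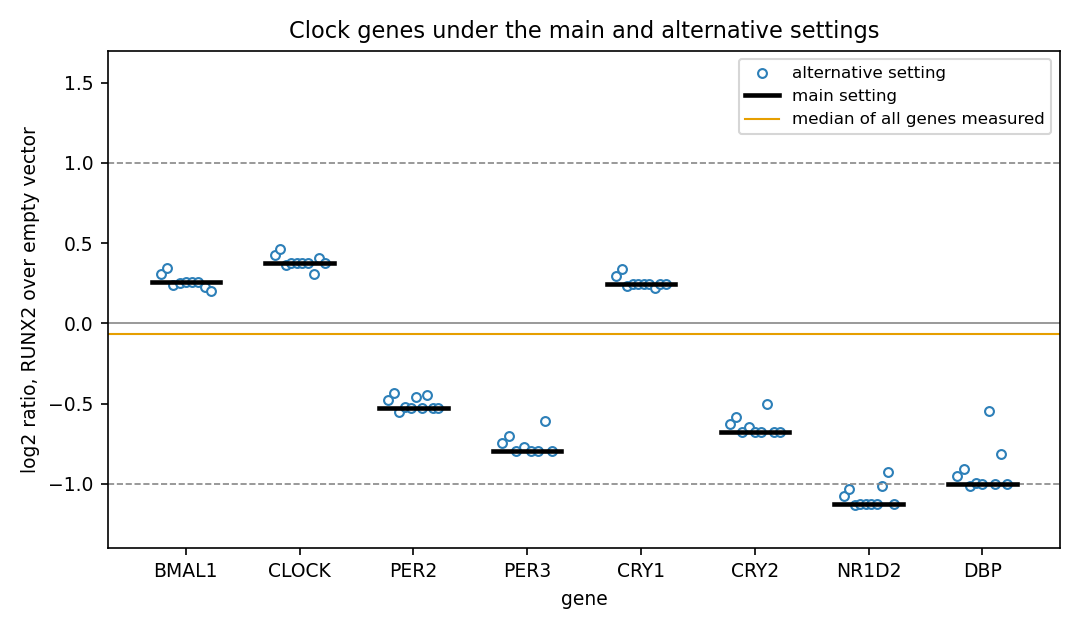
Log2 ratio of each of the 8 clock genes, array labelled RUNX2 over empty vector, in the main setting (bars) and under up to 10 alternative settings (circles), with 2-fold (dashed) and the median of all genes measured (-0.06). All 75 alternative values kept the sign of the main value, though some could not move because the setting left the values of the gene unchanged. The widest move was DBP with the floor at the 75th percentile, from -1.002 to -0.55.

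The wider clock pathway was described with 4 lists of 77 genes in all. The annotation named 70 of them alone, and 63 were measured. Of these 63, 3 (4.76%) were at least 2-fold lower, against 1.47% of all genes, and 0 were at least 2-fold higher, against 1.42%. The median log2 ratio was -0.04, close to the -0.06 of all genes. The 3 lower genes were RORA, KLF9 and TSC22D3. Under 7 of the alternatives the count was 1, which was TSC22D3 in 6 of them and RORA in the other. That other setting left out probe sets ending in _x_at or _s_at, and with them all measured ones of TSC22D3 and KLF9. In those 7 settings, 0.715% to 1.66% of all genes were at least 2-fold lower.

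Among other loop factors, 8 of 12 genes with a probe set were measured, with a median of 0.14. The nuclear receptor RORA, which activates BMAL1 at the elements where NR1D2 represses it, read 107 with the empty vector and 40.5 in the array labelled RUNX2 by 226682_at. The second value is below the floor, so RORA was at least 2.06-fold lower, while its other 7 probe sets were below the floor on both arrays. BHLHE41, a helix-loop-helix repressor of E-box genes, read 717 and 912, a log2 ratio of 0.35, and had 0.60 in a second probe set. Its paralog BHLHE40 had -0.01, with 0.26 in another. The D-box factors had -0.14 for TEF, an activator related to DBP, and -0.21 for NFIL3, a repressor at the same elements. TIPIN, which acts with TIMELESS at replication forks, had 0.56, TIMELESS 0.29, and CIPC, an inhibitor of CLOCK, 0.36. NPAS2, the paralog of CLOCK, lay below the floor on both arrays in all 5 probe sets, as did HLF, another PAR-domain factor, in all 3, and the repressor CIART in its 1.

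Modifiers of clock proteins were measured for 24 of 26 genes, with a median of -0.05. Of these, 0 were past 2-fold, against 1.47% lower and 1.42% higher among all genes. CSNK1E, a casein kinase that marks PER proteins for degradation, read 224 and 377, a log2 ratio of 0.75, with 0.39 in its other probe set. SFPQ, an RNA-binding protein that associates with PER complexes, had 0.97 in its brightest probe set and 0.71 in another, but -0.33 and -0.57 in the remaining measured ones, so its direction is not settled. USP2, a deubiquitinase that is itself under clock control, read 79.9 and 55.9, a log2 ratio of -0.51, and its other measured probe set read 50.8 and 52.9, the first under the floor.

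Output genes were measured for all 17 genes with a probe set, with a median of -0.02. Of these, 1 (5.88%) was at least 2-fold lower, against 1.47% of all genes. KLF9, a Krüppel-like factor with rhythmic expression in skin, read 158 and 78.0 in 203542_s_at, 2.02-fold lower, and 121 and 39.7 in 203543_s_at, at least 2.33-fold lower against the floor. The remaining KLF9 probe sets were below the floor on both arrays. NOCT, a rhythmic phosphatase, was at least 1.65-fold higher in 1554283_at, since 46.2 with the empty vector was below the floor and 91.0 with RUNX2 was not. Its other probe set, 220671_at, was below the floor on both arrays (47.0 and 44.9), so NOCT rests on 1 measured probe set. CCND1, cyclin D1, read 576 and 924, a log2 ratio of 0.68, and was 2.14-fold higher in its other probe set.

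The list of inputs holds genes of CREB, serum and glucocorticoid signalling to PER1 and PER2, both regulators and genes that these signals induce. Of its 15 genes with a probe set, 14 were measured, with a median of -0.11. Of these, 1 (7.14%) was at least 2-fold lower, against 1.47% of all genes. TSC22D3, also called GILZ and induced by glucocorticoids, read 2896 with the empty vector and 1127 in the array labelled RUNX2, 2.57-fold lower, and 306 and 140 in another probe set, 2.18-fold lower. The orphan nuclear receptor NR4A2 had a log2 ratio of -0.83, from -0.90 to -0.47 over 3 probe sets. CREM, a cyclic AMP response factor, had 0.67 in its brightest probe set and 0.18 to 0.36 in the others measured. FKBP5, another gene induced by glucocorticoids, had -0.28, and the glucocorticoid receptor gene NR3C1 had 0.11, from -0.16 to 0.82 over 5 probe sets.

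**Figure D3:**
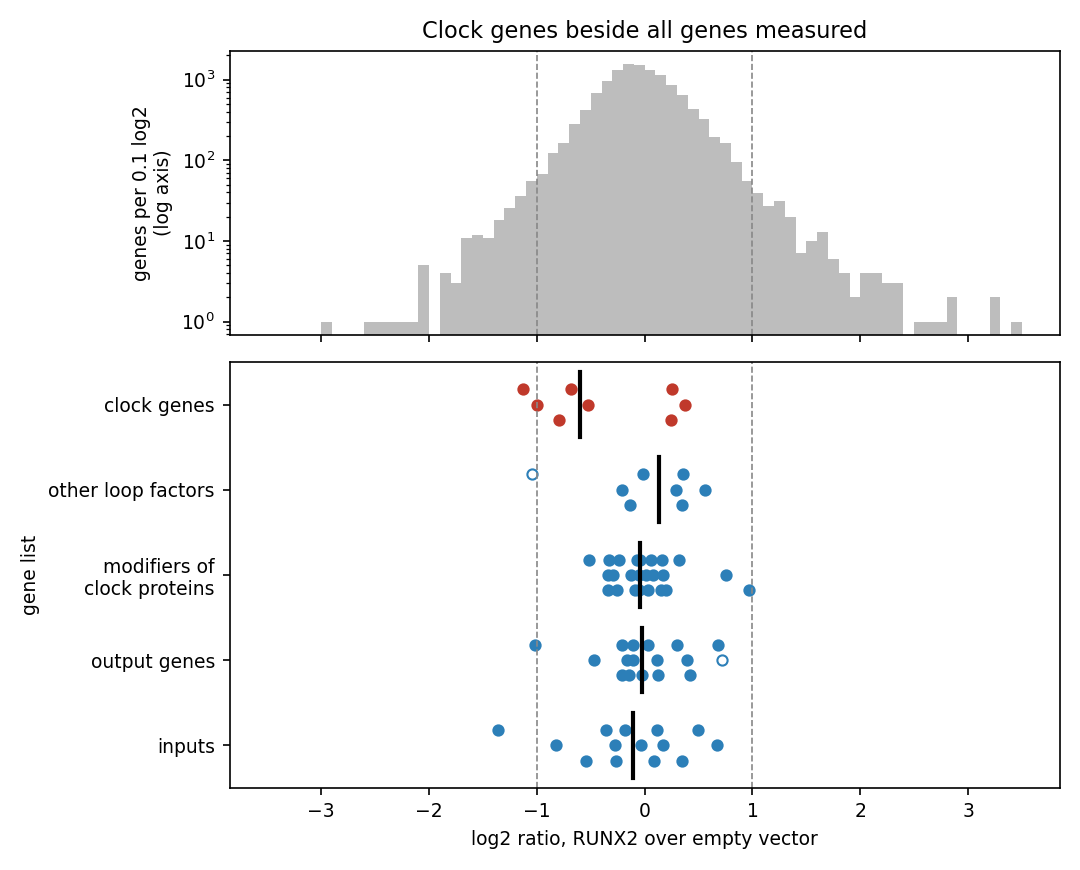
Top, number of genes per 0.1 log2 ratio for all 12729 genes measured (log axis). Bottom, each measured gene of the clock gene list (red) and of the 4 wider lists (blue, open where 1 array is below the floor and the value is a bound), with the list median as a bar and 2-fold as dashed lines. The clock gene median is -0.60, and the medians of the other lists lie between -0.11 and 0.14.

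The check of the labels did not settle them. Of 6 RUNX2 probe sets 3 were measured. With the empty vector and on the array labelled RUNX2, 216994_s_at read 204 and 854, 4.17-fold higher, and 221282_x_at read 102 and 353, 3.47-fold higher. The brightest, 232231_at, read 1746 and 433, 4.03-fold lower, and by the rule used here it stands for the gene. Every direction above thus rests on the labels alone. Of 8 keratinocyte and squamous markers, all 5 that had a probe set alone (KRT5, KRT14, SFN, DSG3 and CDH1) were above the floor on both arrays, and their summed level was 25506 and 34248. KRT14, the basal keratin, was 2.69-fold higher, a wider log2 ratio (1.43) than that of any clock gene, KRT5 had 0.51 and SFN 0.47, and DSG3 and CDH1 had -0.08 and 0.01. Among markers of other cell types, 1 of 6 fibroblast genes (COL1A1, log2 ratio -0.32), 1 of 4 leukocyte genes (CSF1R, -0.36) and 2 of 4 endothelial genes (PECAM1, -0.32, and VWF, -0.44) were measured. The leukocyte genes PTPRC, CD3E and CD14, the endothelial genes CDH5 and KDR, and the fibroblast genes COL1A2, COL3A1, PDGFRB, DCN and LUM did not exceed the floor on either array. The part of these markers in the clock gene values was not tested.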

How the data were processed

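The table deposited by the authors gives each probe set 1 linear intensity on each array. MAS5 is named in the submitters' processing notes with no version, and the summarisation and scaling target are not given in the sources used here. Groups were taken from the sample titles. Leaving out 62 control probe sets, a factor brought the trimmed mean (2% off each tail) of the array labelled RUNX2 to that of the other, and values below an array's median were raised to it, which makes the ratio a bound. Probe sets were named by the platform annotation, with symbols updated through Entrez IDs in a RefSeq table (41037 of 41091 matched), and those with several symbols (1801) or none (11721) named no gene. A gene was represented by its measured probe set of highest mean log2 value. Named genes were all members, wider-list genes past 2-fold, the 3 widest ratios per list and known partners or paralogs of members; 3 further genes (TIMELESS, FKBP5 and NR3C1) were named after their values were seen. Members and lists were chosen with earlier results of these data known. Alternatives covered scaling, the floor, the choice of probe set and the threshold. Scripts ran in Python 3.11.15 with statsmodels 0.14.6 for loess (span 0.4) and were tested on simulated arrays.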

Additional observations from a re-analysis of the deposited data

How the results depend on the processing

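The clock gene ratios kept their sign under all alternatives tried (75 of 75 values), but some of these values could not move. The 12 measured probe sets were above the floor on both arrays, so a lower floor or none repeated the main values. Other scalings moved the median log2 ratio of all genes by at most 0.09. A further 5 values were not available. PER3 and CRY2 were not measured with the floor at the 75th percentile, and all measured probe sets of PER3, BMAL1 and DBP end in _s_at. Of the 75 values, 74 moved by less than the SD of 0.29 between probe sets of a gene. The exception was DBP with the floor at the 75th percentile, at -0.55, where the bound sits on a raised floor. The count of clock genes at least 2-fold lower, 2 in the main setting, was 1 on the deposited scale without a factor, with equal medians, after loess, with the floor at the 75th percentile, with an offset and no floor, with the mean over probe sets and without probe sets ending in _x_at or _s_at, and 4 at 1.5-fold. That 1 gene was NR1D2, except with the mean over probe sets, where it was DBP. In those 7 settings, 0.715% to 1.66% of all genes were at least 2-fold lower, and 6.88% were at least 1.5-fold lower in the main setting. Without probe sets ending in _x_at or _s_at, 5 clock genes were measured, and DBP was not among them. The clock gene median was -0.11 with the floor at the 75th percentile, where 6 genes were measured. The count of wider clock genes at least 2-fold higher, 0 in the main setting, was 1 (SFPQ) without a factor and with equal medians, and 5 at 1.5-fold. Of all genes, 1.65% were at least 2-fold higher without a factor and 1.81% with equal medians, and 5.77% were at least 1.5-fold higher. The count at least 2-fold lower, 3 in the main setting, was 1 without a factor, with equal medians, after quantile normalization, after loess, with the floor at the 75th percentile, with an offset, and without probe sets ending in _x_at or _s_at. In the settings with a count of 1, 0.715% to 1.66% of all genes were at least 2-fold lower. The wider median lay between -0.11 and 0.05. No paired analysis was possible because each group has 1 array. The number of arrays limits the precision, and 6 of 18 clock gene probe sets did not exceed the floor.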
